A study of Mus musculus with 4 samples.

Results

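Intrinsic neurons and glia of the embryonic lung were followed through 32 genes listed as their markers. These were among 52636 genes measured in whole lungs of mouse embryos at embryonic day 14.5. Some of the 32, such as Ncam1 and Uchl1, are also expressed in other cells. The members were listed by name, and all 32 were found in the table through their Ensembl identifiers. Of these, 25 are neuronal genes and 7 are genes of glia and neural crest. The samples were C57BL/6 lungs in 2 groups of 2, wild type (control 1 and control 2) and a conditional knockout of Yap (Yap CKO 1 and Yap CKO 2), which the series title places in the epithelium. Yap, encoded by Yap1, is the transcriptional coactivator that Hippo signalling restrains. No Cre driver is named in the labels, and whether the samples came from separate embryos is not stated. The controls differed in sex-linked genes, so they did not come from the same embryo. Each p-value reflects the spread of these samples alone, which may be technical between the Yap CKO libraries. In a whole organ, fewer cells of a type and less RNA per cell cannot be told apart.

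Lung neurons come from vagal neural crest cells that enter the foregut, move onto the lung buds and gather into small ganglia along the airway smooth muscle. Their migration and survival are known to depend on RET, the signalling receptor for ligands of the GDNF family, and the mature cells use acetylcholine, noradrenaline, nitric oxide and peptides. Glial precursors, marked by the transcription factor SOX10, travel along the same nerves. Ligands made by epithelium and mesenchyme guide both.

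The whole series gave the setting for these genes. The libraries held 17756301 to 21333878 reads counted to genes, with the highest depth but 1 in control 1 (21285794). Yap1 stood at 5686, 3467, 3209 and 4483 normalized counts (the 2 controls first, then the 2 Yap CKO libraries), so its groups overlapped (log2 difference -0.23, adjusted p = 0.683, limma) and whole-lung Yap1 does not check the labels. All directions are therefore those of the libraries as labelled. Lung markers were present in every library, 10 of 10 passing the filter, with Sftpb and Sftpc called higher in Yap CKO. The libraries also differed in other tissue: 17 heart muscle markers summed to 1854, 56266, 12680 and 2275 normalized counts in the same order, and 12 skeletal muscle markers to 179, 396, 432 and 172. Xist, which is expressed from an inactive X chromosome, was at 42.6 in control 1 and at 42729 to 50045 in the other 3 libraries. Ddx3y, a gene of the Y chromosome, was at 1726 in control 1 and at 5.77 to 16.4 in the other 3 libraries. Control 1 thus stands apart by sex-linked genes and, with Yap CKO 2, holds little heart muscle RNA.

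The noradrenergic enzyme genes Dbh and Th are shown with the 250 bases before their RefSeq start, because both were low in the same libraries as the transcription factor gene Phox2a. The Th stretch is chr7:142899996-142900245 on the minus strand and the Dbh stretch is chr2:27165257-27165506 on the plus strand (RefSeq, GRCm38.p6, the assembly called mm10). Capitals mark ATTA on either strand, the core letters read by many homeodomain factors such as PHOX2A, and TGACGTCA, the cyclic AMP response element.
Th: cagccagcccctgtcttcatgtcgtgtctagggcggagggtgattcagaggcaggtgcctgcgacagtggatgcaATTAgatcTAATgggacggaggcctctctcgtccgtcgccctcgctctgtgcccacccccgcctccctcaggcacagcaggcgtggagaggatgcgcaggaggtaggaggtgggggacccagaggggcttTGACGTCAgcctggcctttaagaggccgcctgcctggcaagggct
Dbh: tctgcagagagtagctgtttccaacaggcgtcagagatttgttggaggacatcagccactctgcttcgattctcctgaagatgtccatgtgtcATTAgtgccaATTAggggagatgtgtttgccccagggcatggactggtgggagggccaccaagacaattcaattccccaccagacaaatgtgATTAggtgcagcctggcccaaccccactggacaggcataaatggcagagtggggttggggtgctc
Dbh holds 3 copies of ATTA and Th holds 2. At least 2 copies were present in 34.1% and at least 3 in 20.0% of the 32851 promoter windows of 300 bases (250 before to 50 after the start). TGACGTCA was present in Th, 45 bases before the start, and in Foxd3, against 1.79% of all windows. RefSeq promoter windows were matched for 21 of the 32 members, 27 windows in all. Over both strands, ATTA was found in 16 of the 27 member windows (58.0% of all windows), CAGCTG in 8 (16.3%), ACAATG in 4 (12.6%), and CACGTG in 2 (7.15%). A longer homeodomain pattern, which contains ATTA, was found in no member window and in 0.265% of all windows. That pattern differs from its own reverse complement, so its counts do not show how frequent palindromic paired-homeodomain sites are. These matches describe letters only.

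Most neuronal genes were lowest in control 1, and for many of them control 2 lay within or above the range of the Yap CKO libraries. Values are normalized counts, that is, reads per gene divided by 1 scaling factor per library. Stmn2, which encodes the growth cone protein stathmin-2, was at 64.0 and 246 in the controls (control 1 first) and at 259 and 209.7 in the Yap CKO libraries. Control 2 lay inside the range of the Yap CKO libraries, and the groups overlapped. Tubb3, the neuronal beta-tubulin, was at 14.5, 80.7, 121 and 62.5 in the same order. Exact 95% Poisson counting intervals for Tubb3 were 8.14 to 24.0 in control 1 and 48.4 to 79.3 in Yap CKO 2, the next lowest library. These intervals did not overlap, but they leave out reads copied by PCR, which could make the true error wider. The axon filament genes were also lowest in control 1, with Nefl at 19.4, 97.1, 139 and 73.6, and Prph (peripherin, of peripheral neurons) at 6.78, 46.8, 60.6 and 50.3. The RNA-binding protein gene Elavl3 was at 7.75, 45.6, 51.9 and 29.8.

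**Figure D1:**
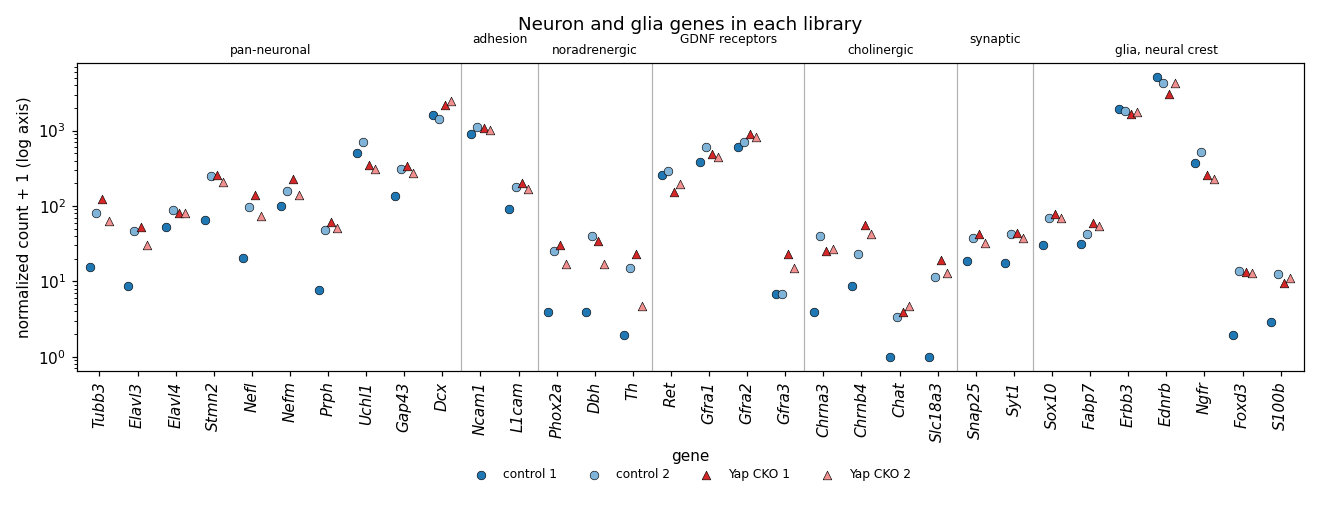
Normalized count plus 1 (log axis) of the 32 neuron and glia genes, 1 point per library, ordered by role. The dark blue point of control 1 lies lowest for most neuronal genes, as for Tubb3 at 14.5 against 62.5 to 121, and not for Dcx, Uchl1, Ret, Erbb3, Ednrb or Ngfr.

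Gap43, L1cam, Snap25, Syt1, Nefm and Elavl4 were lowest in control 1 too, by smaller steps. Gap43, a growth cone membrane protein gene, was at 133, 304, 335 and 277, and the adhesion gene L1cam at 90.1, 177, 198 and 168. Snap25 and Syt1, which encode a fusion protein and the calcium sensor of synaptic vesicle release, were at 17.4 and 16.5 in control 1 and between 31.7 and 43.3 in the other libraries. Nefm was at 98.8, 157, 226 and 139.8, and Elavl4 at 52.3, 87.7, 80.8 and 79.2. Nefl and Nefm share 1108 bases of exon on opposite strands (32.8% and 19.2% of their exons), and no source used here states the strand setting of the counting, so reads of the pair could be mixed. Ncam1, an adhesion molecule gene expressed well beyond neurons, was close in all 4 libraries, at 904, 1127, 1079 and 1003.

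The genes of noradrenergic identity had few reads and a wide spread. Phox2a, a transcription factor that specifies autonomic neurons, held 3 reads in control 1, or 2.91 (interval 0.60 to 8.50), and the other libraries had 24.6, 29.8 and 15.8. Phox2a shares 95 bases of exon with Inppl1 on the opposite strand, a gene with 2797 to 3463 reads. Dbh, which makes noradrenaline from dopamine, was at 2.91, 38.6, 33.7 and 15.8. Th, the first enzyme of catecholamine synthesis, was at 0.97, 14.0, 22.1 and 3.73, with 1 and 4 reads in control 1 and Yap CKO 2. All 3 genes were thus lowest in control 1 and next lowest in Yap CKO 2.

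Cholinergic genes were lowest in control 1 as well. Chrna3, a subunit of the ganglionic nicotinic receptor, was at 2.91, 38.6, 24.0 and 26.1. Its partner subunit gene Chrnb4 was at 7.75, 22.2, 55.8 and 41.0, so both Yap CKO libraries lay above both controls. Group means came to 15.0 ± 10.2 and 48.4 ± 10.4 (SD, n = 2). The log2 difference, 1.78 (standard error 0.51), did not pass over all genes (adjusted p = 0.139, limma). Slc18a3, the vesicular acetylcholine transporter gene, was at 0 in control 1, which allows up to 2.91, and at 10.5, 18.3 and 12.1. Chat, which makes acetylcholine, held 0, 2, 3 and 4 reads and did not pass the filter.

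Glial and neural crest genes did not share 1 pattern. Sox10 was at 29.1, 69.0, 76.9 and 69.0, and Fabp7, a lipid-binding protein gene of glial precursors, was at 30.0, 40.9, 58.6 and 53.1. Foxd3, a neural crest transcription factor gene, was at 0.97, 12.9, 12.5 and 12.1, and the glial calcium-binding protein gene S100b at 1.94, 11.7, 8.65 and 10.3. Neither passed the filter. Erbb3, the receptor through which neuregulin acts on Schwann cell precursors, was instead highest in control 1, at 1931, 1827, 1658 and 1791. Ednrb, the endothelin receptor of neural crest cells, was at 5094, 4259, 3029 and 4258, with control 2 and Yap CKO 2 about equal. Per kilobase of exon the mean levels of Erbb3 (299.5) and Ednrb (975) were far above that of Sox10 (20.0). Which cells of the lung held the reads of Erbb3 and Ednrb was not tested. Ngfr, described below with Uchl1, was highest in control 2.

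Read against all genes, the low values of control 1 were frequent among the members. The 29 members with a mean of at least 10 normalized counts passed the filter, leaving out Chat, Foxd3 and S100b, and this filter can favour members high in some libraries. Control 1 was the lowest of the 4 libraries for 23 of these 29, against 23.5% of the 19472 genes tested. It lay more than 2 times below each other library for 14 of 29, against 1.8% of genes. Control 2 was at least 2 times control 1 for 15 of 29, against 3.95% of genes. The order Yap CKO 1, control 2, Yap CKO 2, control 1, from high to low, held for 12 of 29 and 2.28% of genes, and the order of the heart muscle sum (control 2, Yap CKO 1, Yap CKO 2, control 1) for 4 of 29 and 4.14%. A further 6 of 29 had both Yap CKO libraries on top and control 1 lowest, with Yap CKO 1 above Yap CKO 2, against 5.29% of genes. These counts were chosen after the values were seen. The median difference between the controls over the 29 was 1.01 on the log2(normalized count + 1) scale, higher in control 2, and the median difference between the 2 Yap CKO libraries was 0.24, higher in Yap CKO 1. The part of heart and skeletal muscle RNA and of sex in this spread was not tested.

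**Figure D2:**
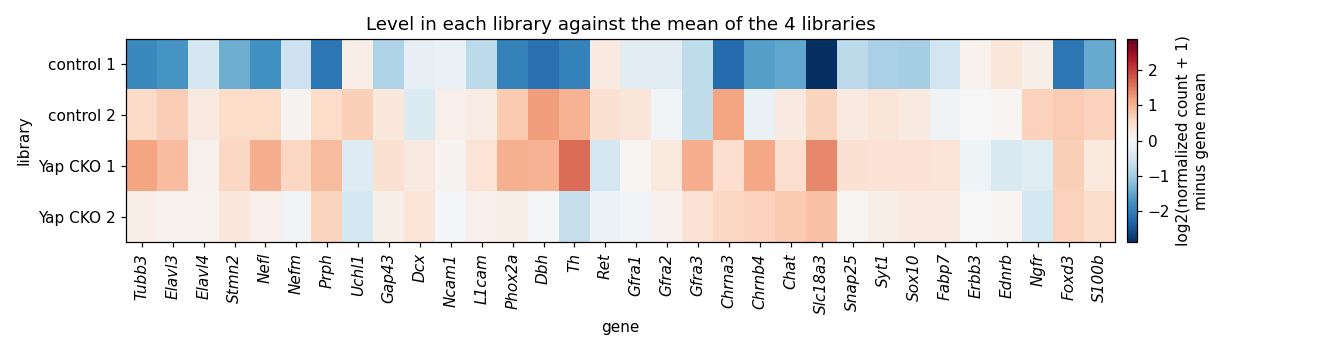
Log2(normalized count + 1) of each gene in each library minus the gene's mean over the 4 libraries (color scale). Control 1 lies above the gene's mean for Uchl1, Ret, Erbb3, Ednrb and Ngfr and below it for the other members, as for Stmn2 at 64.0 against 209.7 to 259.

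Between the groups, Dcx was the single member that passed the test. Dcx, which encodes the microtubule protein doublecortin of migrating neurons (chromosome X, 143855842 to 143933311), was at 1592 and 1411 in the controls and 2217 and 2432 in Yap CKO. Both Yap CKO libraries lay above both controls. Which cells of the lung held the reads of Dcx was not tested. Mean counts were 1502 ± 128 for control and 2324 ± 152 for Yap CKO (SD, n = 2). On the log2 scale Dcx rose by 0.63 (standard error 0.11, adjusted p = 0.0395, limma over 19472 genes). So 1 of 29 members rose, where 1.19% of all genes rose (231) and 1.15% fell (223). With libraries scaled to equal totals 292 genes rose and 179 fell. No member fell by limma. An unadjusted p under 0.05 was found for 3 members that were lower and 4 that were higher, 7 of 29 against 18.9% of all genes. edgeR called 1 member higher and 0 lower (2.07% of all genes), and DESeq2 called 1 higher and 2 lower (5.54%). Groups did not overlap for 7 members that were higher and 5 that were lower in Yap CKO, 12 of 29, against 50.8% of all genes (25.2% higher and 25.6% lower). The call of Dcx ended without Yap CKO 1 (limma adjusted p = 0.273, 0.0103% of all genes called), without Yap CKO 2 (0.346, 0.0873% called), without the filter (0.111, 0.168% called) and without the intensity trend (0.156, 0.0308% called).

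Dcx did not share the pattern of control 1. Per kilobase of exon its mean level over the 4 libraries was 151 normalized counts, against 37.3 for Tubb3, 34.7 for Stmn2 and 4.90 for Elavl3. Levels per kilobase also set apart Ednrb (975), Erbb3 (299.5), Uchl1 (288), Gfra2 (214), Gap43 (172), Ncam1 (119), Ngfr (99.4) and Gfra1 (87.9). Among these 9 genes with the highest levels per kilobase, Gap43 was the only one for which control 2 was at least 2 times control 1.

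Uchl1, Ngfr and Ret were lower in both Yap CKO libraries than in both controls, without passing over all genes by limma. Uchl1, a ubiquitin hydrolase gene of neurons and also of pulmonary neuroendocrine cells (chromosome 5, 66676091 to 66687234), was at 505 and 716 in control and 346 and 313 in Yap CKO. Uchl1 differed by -0.87 on the log2 scale (standard error 0.18, adjusted p = 0.0734, limma, and 0.0042 by DESeq2). Ngfr, the p75 neurotrophin receptor gene (chromosome 11, 95568818 to 95587735), was at 367 and 518 against 256 and 229 (log2 difference -0.85, standard error 0.19, adjusted p = 0.0831, limma, and 0.0132 by DESeq2). With 1 library left out the log2 difference ranged from -1.118 to -0.615 for Uchl1 and from -1.094 to -0.599 for Ngfr. Whether either gene passed in such a fit depended on the group that lost a library. In such a fit the lone library is assumed to vary like those of the other group. Neuroendocrine markers were measured beside Uchl1: none of the 6 of 10 that passed the filter was called by limma, edgeR or DESeq2. An unadjusted p under 0.05 was found for 2 of the 6, against 18.9% of all genes. The median log2 difference of the 6 was -0.45. The summed level of the neuroendocrine markers was 299 and 389 in control and 259 and 238 in Yap CKO, and its part in the value of Uchl1 was not tested.

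The GDNF family receptors did not move as a group. Ret (chromosome 6, 118151745 to 118197718) was at 259.7 and 294 in control and 153 and 192 in Yap CKO (log2 difference -0.69, standard error 0.18, adjusted p = 0.11, limma). Gfra1, the co-receptor for GDNF, was at 382, 605, 491 and 448, overlapping between groups. Gfra2, the co-receptor for neurturin, was at 599 and 713 against 905 and 812 (log2 difference 0.39, adjusted p = 0.178, limma). Gfra3, the co-receptor for artemin, was at 5.81 and 5.85 against 22.1 and 14.0 (log2 difference 1.45, adjusted p = 0.169, limma). Thus 1 receptor lay lower and 2 lay higher in Yap CKO without a call, and 1 overlapped, where 50.8% of all genes did not overlap. With 1 library left out the log2 difference ranged from -0.849 to -0.522 for Ret and from 0.264 to 0.516 for Gfra2.

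Leaving out 1 control changed the picture of the members as a whole. Over all 4 libraries the median log2 difference of the 29 members was 0.63, against -0.005 over all genes, with 23 positive and 6 negative. Without control 1 the median of these 29 was -0.04, with 1 of the 31 members then passing the filter called higher (Dcx) and 3 lower (Uchl1, Ngfr and Ret). Without control 2 the median was 1.10, with 17 of the 28 then passing the filter called higher, among them Stmn2, Tubb3, Phox2a, Dbh, Chrna3 and Sox10, and 3 lower (Uchl1, Ngfr and Ednrb). Over all genes these fits called 13.7% and 12.7%, against 2.33% with all libraries. Their spread was that of the 2 Yap CKO libraries (median SD 0.098, against 0.14 between the controls, on the log2 scale), and its part in the number of calls was not tested. Stmn2 was at -0.08 without control 1 and 1.85 without control 2, Dbh at -0.71 and 2.63, and Chrna3 at -0.60 and 2.74. Whether neuronal RNA was higher in Yap CKO than in control therefore depended on which control was used.

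**Figure D3:**
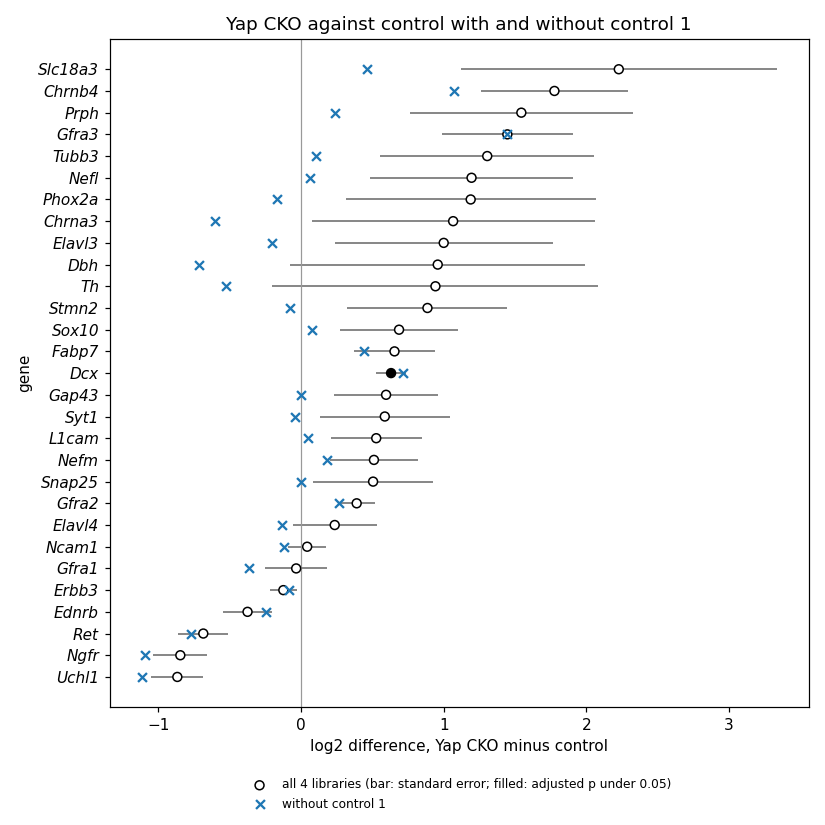
Log2 difference between Yap CKO and control for the 29 genes that passed the filter (horizontal axis), with all 4 libraries (circles with standard errors, filled for Dcx, the call) and without control 1 (crosses). Without control 1 Stmn2 lies at -0.08 against 0.89, and the values farthest from 0 are those of Gfra3 (1.44), Uchl1 (-1.12), Ngfr (-1.09), Chrnb4 (1.07), Ret (-0.77), Dcx (0.72) and Dbh (-0.71).

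Ligands of these receptors were measured from a list of 15 genes, which also holds Ece1, the gene of an endothelin-processing enzyme. Of the 15, 12 passed the filter, 0 were called higher, 1 fell and 11 did not pass (median log2 difference -0.29). Over all genes 1.19% were called higher and 1.15% lower. The fall was in Edn3, which encodes endothelin 3, the ligand of EDNRB in neural crest cells. Edn3 was at 567 and 413 in control and 134 and 204 in Yap CKO, a log2 change of -1.54 (standard error 0.25, adjusted p = 0.0361, limma). Both Yap CKO libraries lay well below both controls. Edn1, the related endothelin gene, overlapped at 92.1, 169.6, 90.4 and 106. The GDNF family ligand gene Nrtn was at 23.3 and 18.7 against 6.73 and 6.53 (log2 difference -1.52, adjusted p = 0.125, limma). Gdnf was at 14.5, 21.05, 4.81 and 16.8, and Artn at 32.9, 24.6, 26.0 and 25.2, both overlapping. The neurotrophin genes Bdnf (38.8, 42.1, 48.1 and 36.4) and Ntf3 (53.3, 39.8, 33.7 and 37.3) did not pass, nor did Nrg1, the neuregulin gene, at 124, 185, 108 and 152 (adjusted p from 0.552 to 0.948, limma). Among 8 other neurotrophic receptors none was called by limma, edgeR or DESeq2. An unadjusted p under 0.05 was found for 2 of the 8, against 18.9% of all genes. The smallest p was that of Erbb2, at 2157 and 2103 against 1754 and 1719.8 (log2 difference -0.29, adjusted p = 0.147, limma).

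**Figure D4:**
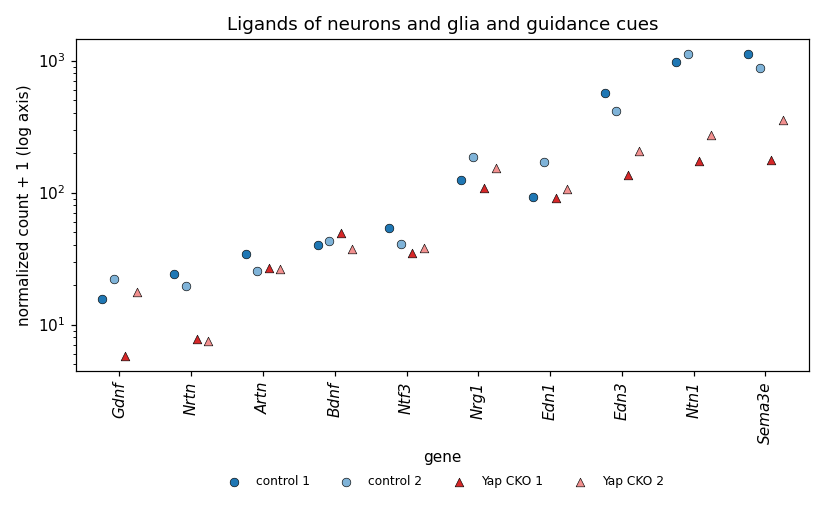
Normalized count plus 1 (log axis) of 8 ligand genes of the neuron and glia receptors and of 2 guidance cue genes, 1 point per library. The Yap CKO triangles lie below both control circles for Nrtn, Ntf3, Edn3, Ntn1 and Sema3e, such as Edn3 at 134 and 204 against 567 and 413.

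Both called guidance genes encode secreted cues. Of 24 axon guidance genes 2 fell, 0 rose and 22 did not pass (median log2 difference -0.13). Among all genes 1.15% fell and 1.19% rose. Ntn1, which encodes netrin 1, a secreted cue for axons and epithelia, was at 977 and 1120 in control and 173 and 274 in Yap CKO. Ntn1 changed by -2.26 on the log2 scale (standard error 0.22, adjusted p = 0.01, limma). Sema3e, a semaphorin gene that repels axons and vessels, was at 1111 and 884 against 176 and 351 (log2 change -1.99, standard error 0.31, adjusted p = 0.0334, limma).

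Other neuronal genes moved both ways. Of 17 genes of transmitter synthesis, transport and peptides 10 passed the filter, 2 rose and 8 did not pass. Over all genes 1.19% rose and 1.15% fell. Ddc, the decarboxylase that makes dopamine and serotonin, which endocrine cells also express, rose from 234 and 303 to 732 and 581 (log2 change 1.29, standard error 0.18, adjusted p = 0.0246, limma). Npy, a peptide gene of sympathetic neurons, held 0 and 1 read in control and stood at 96.1 and 50.3 normalized counts in Yap CKO (adjusted p = 0.0129, limma). In control 2, which held 1 read of Npy, Dbh was at 38.6 and Th at 14.0. Which cells held the Npy reads was not tested. Among 7 measured autonomic transcription factors none was called by limma, edgeR or DESeq2. An unadjusted p under 0.05 was found for 3 of the 7, against 18.9% of all genes. The nearest was Isl1, also a factor of endocrine cells, at 44.6 and 125 against 485 and 306 (log2 difference 2.35, adjusted p = 0.0636, limma). Of 39 measured synapse and axon genes 3 fell, 0 rose and 36 did not pass, with a median of 0.25. Dpysl5, of growth cone signalling, fell from 996 and 813 to 482 and 433 (adjusted p = 0.0249). Kif1a, the motor of synaptic vesicle precursors, fell from 837 and 794 to 529.7 and 505 (adjusted p = 0.0365), and the tubulin gene Tubb2b fell from 1906 and 1909.6 to 1260.4 and 1361 (adjusted p = 0.0417, all limma). In these 3 genes control 1 was not the lowest library. Of 11 further glial genes that passed the filter, none was called by limma, edgeR or DESeq2, and 2 had an unadjusted p under 0.05. Positive values were found for 10 of the 11, against 9614 of the 19472 genes tested. Control 1 was the lowest library for 8 of the 11, against 23.5% of all genes. Their median log2 difference was 0.18 without control 1 and 0.72 without control 2.

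The 9 calls named among members and related nerve genes (Dcx, Npy, Ddc, Dpysl5, Kif1a, Tubb2b, Edn3, Ntn1 and Sema3e) depended on the settings. Without a Yap CKO library their log2 values kept their sign, for example 0.70 and 0.56 for Dcx and -1.93 and -2.59 for Ntn1 (without Yap CKO 1 and without Yap CKO 2), in fits that called 0.0103% and 0.0873% of all genes. Without Yap CKO 1 none of the 9 passed (adjusted p from 0.0793 to 0.398), and without Yap CKO 2 only Ntn1 did (0.0483). None passed without the filter or without the intensity trend, while all 9 passed with edgeR (adjusted p from 0.0139 to 0.0427) and DESeq2. Tubb2b missed the threshold when libraries were scaled to equal totals (0.0548).

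Markers of other neural sources were present at unequal levels. Of 12 sensory neuron markers 11 were in the table and 5 passed the filter, with none called by limma, edgeR or DESeq2. P2rx2 (223, 215, 275 and 283) was the 1 of the 5 with an unadjusted p under 0.05, against 18.9% of all genes. Piezo2, a touch channel gene also used outside sensory neurons, was at 2392 to 2892, Avil at 22.2 to 47.5, P2rx3 at 16.4 to 27.1 and Scn10a at 0 to 26.9. Neurog1, Neurog2 and Mrgprd were at 0 in every library, Pou4f1 was at 2.34 to 6.73, and Prdm12 and Trpv1 reached at most 2.88 and 2.80. Of 11 markers of the central nervous system 1 passed the filter, Slc17a7, and Olig1, Olig2 and Neurod6 were at 0 in every library. Tbr1 was at 5.85 to 11.5, Gad2 at 1.92 to 10.7, Pax6 at 1.94 to 11.7 and Gad1 at 1.94 to 9.61. Emx2 reached at most 2.88, and Neurod2 and Slc17a6 at most 1.17. Smooth muscle genes, of the tissue beside which airway ganglia lie, were lower: 5 of 10 fell and 5 did not pass. Over all genes 1.15% fell. The summed level of the smooth muscle genes was 23037 and 25511 in control and 9554 and 13203 in Yap CKO. Among those falls were Cnn1, Myocd, Synpo2 and Actg2 (log2 changes -1.38, -1.46, -1.47 and -1.59). The part of smooth muscle in the values of the members was not tested.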

How the data were processed

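RNA was measured in 4 whole-lung libraries at embryonic day 14.5. The authors deposited a normalized count for each gene and library, a signal that they had divided by 1 factor per library. Per the submitters' processing notes the tools were Bowtie2 2.2.9, featureCounts 1.5.0-p1, DESeq 1.16.0 and edgeR 3.18.1 and the build mm10, listed there without roles. Annotation release and strand setting are not given in the sources used here. Every value was a whole multiple of 1 number per library (100% within 0.001 reads), so whole reads were recovered for edgeR 4.0.16 and DESeq2 1.42.0. Symbols, positions and exon lengths came from GENCODE M21 (GRCm38), which matched 52489 of 52636 identifiers. 1 of the listed symbols, Drgx, had no match.

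Genes with a mean of at least 10 entered a limma 3.58.1 fit (R 4.3.3) of log2(normalized count + 1), with an intensity trend. Two-sided tests over 19472 genes received Benjamini-Hochberg adjustment and were called under 0.05. Residual degrees of freedom were 2, with a prior of 4.5. Fold values on this scale understate low genes. All 32 members are named. From each related list up to 4 called genes with the smallest p are named, or the gene with the smallest p where none was called, together with fixed ligands and Yap1, except for a few genes that are not reported here. Heart and skeletal muscle had none called; their nearest genes were Ryr2 (log2 difference -1.48, adjusted p = 0.226) and Tnnt3 (0.93, adjusted p = 0.23). Members and lists were chosen with earlier results of these data known. Counting intervals and floors (3 reads) cover counting error only, because PCR copies of 1 molecule can be read repeatedly. The fits were tested on simulated data. Alternatives covered the pseudocount, filter, scaling, trend, count tests, covariates and each library left out.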

Additional observations from a re-analysis of the deposited data

How the results depend on the processing

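With other pseudocounts, a filter at 50, equal totals, TMM or median ratio scaling and edgeR, 1 member was called higher and 0 lower, as in the values above, and 402 to 476 genes were called. The number of genes called moved from 454 to 56 without the filter, 6 without the trend, 1037 with DESeq2 and 2911 with the summed heart muscle markers as a covariate, and it ranged from 2 to 2665 with 1 library left out. Members called higher moved from 1 to 0 without the filter and without the trend, to 17 with the heart covariate, and ranged from 0 to 17 with 1 library left out. Members called lower moved from 0 to 2 with DESeq2, to 4 with the heart covariate, and ranged from 0 to 3 with 1 library left out. The fits with the covariate or with 1 library fewer have 1 residual degree of freedom. The cause of these shifts was not tested.

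The deviations of same-numbered libraries from their group means had a correlation of -0.364 over 19472 genes. With 2 libraries per group this cannot settle whether the replicate numbers of the labels pair the samples. With the replicate number as a replicate block 342 genes, 0 members higher and 0 lower were called. Of the 9 named calls 5 passed there and 4 did not, Dcx (adjusted p = 0.0589, limma), Edn3 (0.0523), Kif1a (0.0551) and Tubb2b (0.0608). With the pairing crossed, a fit added after seeing the data, the numbers were 972, 2 and 2.

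Directions turned for genes without a call. With 1 library left out the log2 difference ranged from -0.21 to 2.21 for Elavl3, -0.13 to 0.60 for Elavl4, -0.076 to 1.85 for Stmn2, -0.12 to 0.20 for Ncam1, -0.17 to 2.54 for Phox2a, -0.71 to 2.63 for Dbh, -0.52 to 2.09 for Th, -0.37 to 0.30 for Gfra1, -0.60 to 2.74 for Chrna3, -0.002 to 1.01 for Snap25, -0.044 to 1.22 for Syt1, -3.04 to 3.02 for Slc17a7, -0.35 to 0.056 for Artn, -0.15 to 0.25 for Bdnf, -0.53 to 0.044 for Nrg1, -0.79 to 0.089 for Edn1 and -0.58 to 0.13 for Yap1. Gfra1 was also at 0.028 with equal totals and 0.076 with the heart covariate, and Slc17a7 at 0.09 with a pseudocount of 0.5, 0.045 with equal totals and 1.02 with the heart covariate. Genes with few reads, such as Th and Chat, are limited by depth.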

Other observations

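Several genes of the nerve lists followed the library order of the heart muscle markers, whose sum was highest in control 2 (56266), then Yap CKO 1 (12680), Yap CKO 2 (2275) and control 1 (1854). That order held for 4.14% of all genes tested. The genes named here were picked after their values were seen, and other list genes, such as Ntrk2 and Ntrk3, shared the order. Slc17a7, a vesicular glutamate transporter gene, was at 195 in control 2, 39.4 in Yap CKO 1, 13.0 in Yap CKO 2 and 1.94 in control 1. Snap91, of synaptic vesicle recycling, was at 599, 187, 122 and 34.9 in that order, and the neuregulin receptor gene Erbb4 at 315, 103, 57.8 and 46.5. The sodium channel gene Scn10a was at 26.9, 12.5, 2.80 and 0, and Hand2, a transcription factor gene of sympathetic neurons and of heart, at 97.1, 49.0, 22.4 and 5.81. The members Dbh, Elavl4, Gfra1 and Ncam1 shared this order, while 12 members, Tubb3, Stmn2, Phox2a and Th among them, ran Yap CKO 1, control 2, Yap CKO 2, control 1 from high to low.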
